A study of Mus musculus with 8 samples.

Results

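The Ifi200 family is a set of mouse genes on chromosome 1, most of them induced by interferon, and most of whose proteins bind DNA. The 8 members described here are Aim2, Pyhin1, Ifi204, Mndal, Mnda, Ifi203, Ifi202b and Ifi205, taken by their symbols from a table of 23284 genes, and all 8 were found. The table holds 4 further genes of the family, AI607873, Pydc3, Pydc4 and BC094916. RNA was sequenced from lungs of 8 wild-type (WT) C57BL/6 mice that had received a bone marrow transplant and then spent 3 days in hypoxia. For 4 of them the donors were n/i/eNOS-/- mice, which carry no working gene for any of the nitric oxide synthases (Nos1, neuronal, Nos2, inducible, and Nos3, endothelial), and this is called NOS-null marrow. The remaining 4 received WT marrow, and the lungs of each group are numbered 1 to 4 by replicate. Lung cells of the recipient itself still had all 3 genes, the share of donor cells is not given in the labels, and no strain is named for the donors apart from the C57BL/6 label that every sample carries. No lung from normal air is described here. In bulk lung, fewer cells of a type and less RNA per cell cannot be told apart.

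Most Ifi200 proteins carry a HIN domain that grips double-stranded DNA, and most carry a pyrin domain that recruits partner proteins. Aim2 is the best known member. On binding DNA in the cytosol it gathers the adaptor Pycard and the protease Casp1 into an inflammasome, which matures interleukin-1 and opens pores in the cell membrane. Ifi204, related to human IFI16, has been described as a sensor that signals to interferon genes through Sting, which the table lists as Tmem173. Ifi202b encodes p202, a protein with HIN domains and no pyrin domain that is known in mouse cells to bind DNA and hold Aim2 back. Ifi202b is also known in mouse genetics for expression that differs between inbred strains, low in C57BL/6 and high in some strains prone to lupus.

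The family was chosen by its scaled reads in these same libraries, where Ifi202b had the log2 difference of rank 2 from the top among 14008 tested genes. The members' differences between the marrow groups are therefore given as a description, without p-values, and the question is whether Ifi202b stood apart from its neighbours or moved with them. Values are read counts divided by the authors by 1 size factor per library, called scaled reads. Log2 differences subtract the WT marrow mean of log2(scaled reads + 1) from the NOS-null marrow mean, with the standard error (SE) and 95% interval of a limma fit across all tested genes. Library totals ran from 7767065 to 8625142 scaled reads. The 6 lung epithelial and endothelial markers summed to 285484 to 313286 scaled reads in the NOS-null marrow lungs and 293825 to 369126 in the WT marrow lungs, and none was at 0. Nos2 was at 13.3, 20.8, 40.4 and 43.5 scaled reads in NOS-null marrow lungs 1 to 4 and 87.4 to 115 with WT marrow (log2 difference −1.84, SE 0.33, limma adjusted p = 0.0221). Nos3 was at 177 to 219 scaled reads with NOS-null marrow, against 171 to 207 with WT marrow (0.07, limma adjusted p = 0.701), and Nos1 was above 0 in 1 library alone, NOS-null marrow lung 4, at 1.09.

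The genes placed on the reference lie within 682 kb (chromosome 1, 173349547 to 174031755, GRCm38), from Aim2 at one end to Ifi205 at the other. The reference names Mnda as Ifi211, Pyhin1 as Ifi209, AI607873 as Ifi207, Pydc3 as Ifi208 and Pydc4 as Ifi213. Positions and sequences of these 5 genes come from those entries. Ifi202b occupies 173962569 to 173982844 on the minus strand, between Ifi203 (173920400 to 173942866) and Ifi205 (174011998 to 174031755). Several of these genes are near copies of each other, so the first matter is whether a 75-base read can tell them apart. Of 1623 windows of 75 bases along the Ifi202b transcript, none was identical to any other gene's transcript in the reference annotation, and 8 (0.493%) matched one, the pseudogene Gm18445, with at most 2 mismatches. The stretch of the Ifi202b coding sequence closest to it is shown with the pseudogene's stretch, both on the minus strand (chr1:173963825-173963899 and chr1:173986960-173987034, GRCm38), with the 2 differing bases in capitals.
Ifi202b: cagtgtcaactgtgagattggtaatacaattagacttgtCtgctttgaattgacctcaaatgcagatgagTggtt
Gm18445: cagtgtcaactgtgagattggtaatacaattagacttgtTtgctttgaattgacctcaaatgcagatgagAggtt

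Other members share far more. For Mnda, 63.6% of windows were identical to a stretch of another gene and 86.3% matched one with at most 2 mismatches, and for Ifi205 the shares were 45.2% and 53.4%. For Pyhin1 they were 24.3% and 57.9%, the partner in every case being Ifi214. For Ifi204 they were 20.7% and 55.3%, for Mndal 17.1% and 47.7%, for Ifi203 7.81% and 37.4%, and for Aim2 none and 2.97%. A coding stretch that Ifi205 (chr1:174017582-174017656, minus strand) and Mnda (chr1:173901968-173902042, minus strand) hold letter for letter is printed as an example, since a read from it fits both.
Ifi205 and Mnda: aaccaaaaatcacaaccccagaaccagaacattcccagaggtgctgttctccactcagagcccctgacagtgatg

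No 75-base window of the annotated Ifi202b or Aim2 transcripts is identical to one of another gene, while the values of Mnda, Ifi205, Ifi204, Mndal, Ifi203 and Pyhin1 depend on how the authors' pipeline placed shared reads.

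**Figure D1:**
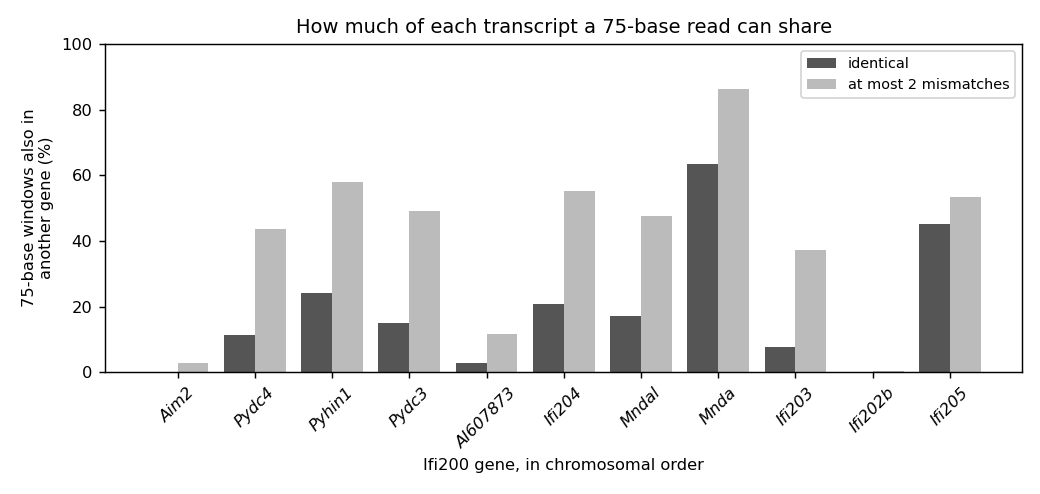
Share of 75-base windows of each Ifi200 gene's protein-coding transcripts (bars, in percent) that another gene's transcript also holds, identical (dark) or with at most 2 mismatches (pale), in chromosomal order. Ifi202b stands at 0 and 0.493%, and Mnda at 63.6% and 86.3%.

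Ifi202b was present in every library with NOS-null marrow and all but absent with WT marrow. It stood at 143.5, 69.8, 44.4 and 62.0 scaled reads in NOS-null marrow lungs 1 to 4, and at 0, 0.937, 1.97 and 1.89 in WT marrow lungs 1 to 4. The groups did not overlap, and the lowest NOS-null marrow library, replicate 3, was still far above the highest WT marrow library. Divided by the value of 1 read in each library, these values came to 309 reads over the 4 NOS-null marrow libraries against 5 over the 4 WT marrow libraries, with 0 to 2 in each WT marrow library. The ratio of pooled reads was 66.2, with an exact 95% counting interval of 28.1 to 205 that covers counting error only. In WT marrow lung 1 a count of 0 allows a level of up to 2.98 scaled reads. The log2 difference was 5.19 (SE 0.45, interval 4.19 to 6.18), and with WT values this near 0 its size depends on the constant added before the logarithm, being 3.66 with 5 in place of 1.

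Aim2, the member with the clearest role and little sharing of reads, had overlapping values in the groups. It stood at 63.6, 81.2, 38.5 and 42.4 scaled reads in NOS-null marrow lungs 1 to 4, against 47.7, 74.9, 51.2 and 43.5 in WT marrow lungs 1 to 4. In each group replicate 2 was the highest, and no library stood apart. The log2 difference was 0.02 (SE 0.26), with an interval of −0.56 to 0.60, so a change of up to about that size in either direction is not excluded by these libraries.

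Ifi204 leaned upward with NOS-null marrow. It stood at 132, 113, 82.8 and 102 scaled reads in NOS-null marrow lungs 1 to 4, against 90.4, 48.7, 91.6 and 40.6 in WT marrow lungs 1 to 4. NOS-null marrow lung 3 lay below WT marrow lungs 1 and 3, so the groups overlapped. The log2 difference was 0.73 (SE 0.27, interval 0.12 to 1.33). Ifi205, the gene on the other side of Ifi202b from Ifi203, stood at 83.0, 132, 44.4 and 59.8 scaled reads in NOS-null marrow lungs 1 to 4, against 53.7, 44.0, 81.8 and 33.1 in WT marrow lungs 1 to 4. It was high in NOS-null marrow lung 2 and low in WT marrow lung 4, and the remaining libraries intermingled (log2 difference 0.54, SE 0.35, interval −0.23 to 1.31). Mnda was low in every library, at 28.7 to 42.4 scaled reads in the NOS-null marrow lungs and 20.6 to 48.3 in the WT marrow lungs (0.13, SE 0.29, interval −0.52 to 0.78). Because Ifi204, Ifi205 and Mnda share reads among themselves, they were also summed. The sum was 244, 285, 163 and 204 scaled reads in NOS-null marrow lungs 1 to 4, against 192, 113, 222 and 98.3 in WT marrow lungs 1 to 4. These sums overlapped too, with a log2 difference of 0.57 against a spread within groups of 0.47 (SD). Mndal, which also shares windows with Ifi204 and Ifi205, was left out, so the sum does not settle where shared reads belong.

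Ifi203 and Mndal, the most abundant members, were level or slightly lower. Ifi203 stood at 435, 553, 492 and 484 scaled reads in NOS-null marrow lungs 1 to 4, against 506, 663, 498 and 441 in WT marrow lungs 1 to 4 (log2 difference −0.09, SE 0.13, interval −0.37 to 0.19). Mndal stood at 447, 485, 442 and 458 scaled reads in NOS-null marrow lungs 1 to 4, against 542, 666, 486 and 477 in WT marrow lungs 1 to 4. The log2 difference of Mndal was −0.23 (SE 0.11, interval −0.47 to 0.01), and the groups overlapped. These 2 genes had the most similar profiles of all pairs of members, with a root mean square difference of 0.10 between their log2 values after each was centred on its own mean over the 8 libraries. Summed, they reached 949 ± 65.2 scaled reads in the NOS-null marrow lungs and 1070 ± 181 in the WT marrow lungs (SD, n = 4 libraries each). This sum does not cover windows that Ifi203 shares with the pseudogene Ifi203-ps, its most frequent partner, or that Mndal shares with Ifi205 and Ifi204.

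Pyhin1 had the lowest log2 difference of the members. It stood at 93.3, 88.5, 84.8 and 105.5 scaled reads in NOS-null marrow lungs 1 to 4, against 209, 213, 222 and 107 in WT marrow lungs 1 to 4. WT marrow lung 4 sat beside the NOS-null marrow libraries, and the groups were separated by little more than the value of 1 read, while the other 3 WT marrow libraries were at 209 or above. The log2 difference was −0.95 (SE 0.22, interval −1.43 to −0.47), and −1.20 without WT marrow lung 4. NK and B cell markers were lower with NOS-null marrow too. The 6 NK cell markers summed to 95.8 to 157 scaled reads in the NOS-null marrow lungs and 255 to 362 in the WT marrow lungs, and 3 of 5 tested (Klra8, Gzma and Klrb1c) fell (limma adjusted p = 0.00962 to 0.0402), against 2.18% of all tested genes called lower. The 7 B cell markers summed to 135 to 1023 scaled reads with NOS-null marrow, against 1372 to 2764 with WT marrow, none at 0. Of 6 tested with limma, 0 passed the adjusted threshold, and their median log2 difference was −2.37. T cell markers went the other way, with 7 of 8 above 0, a median log2 difference of 0.62 and sums of 524 to 1382 scaled reads with NOS-null marrow, against 420 to 584 with WT marrow. In limma 0 of the 8 passed the adjusted threshold. The part of these markers in the Pyhin1 difference was not tested.

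**Figure D2:**
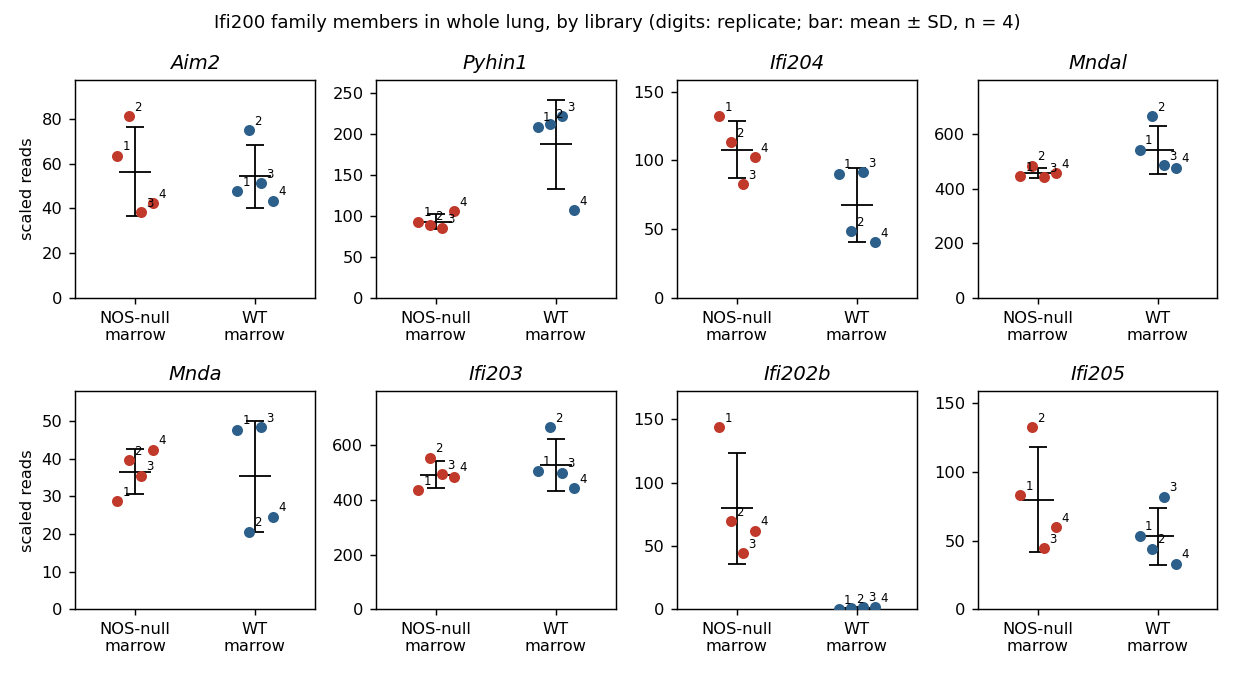
Scaled reads of the 8 members in each library (points numbered by replicate), with the mean and SD of each group (n = 4), in chromosomal order. Ifi202b lies at 44.4 or above in the 4 NOS-null marrow libraries and at 1.97 or below in the 4 WT marrow libraries, and WT marrow lung 4 of Pyhin1 lies beside the NOS-null marrow values.

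All 8 members passed the filter on low values, but Ifi202b passed through the NOS-null marrow libraries alone. By the rule used for all genes, an adjusted p under 0.05, 2 of the 8 members were called, 1 higher (Ifi202b) and 1 lower (Pyhin1), against 4.05% of the 14008 tested genes (1.87% higher and 2.18% lower), and nothing is read from that count because the comparison chose the family. The same 2 members were the ones whose groups did not overlap, which held for 17.1% of all tested genes (7.82% higher and 9.29% lower). The members' median log2 difference was 0.08, and it was 0.02 over the 7 members other than Ifi202b, beside a median of 0.00 over all tested genes. The 3 further genes that could be tested had intervals that include 0. AI607873 had a log2 difference of 0.38 (SE 0.28), with NOS-null marrow lung 1 highest at 227 scaled reads, and Pydc3 and Pydc4 had 0.07 (SE 0.15) and 0.16 (SE 0.35). BC094916, at 3.08 to 8.70 scaled reads in the NOS-null marrow lungs and 2.84 to 12.2 in the WT marrow lungs, was too low to test.

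**Figure D3:**
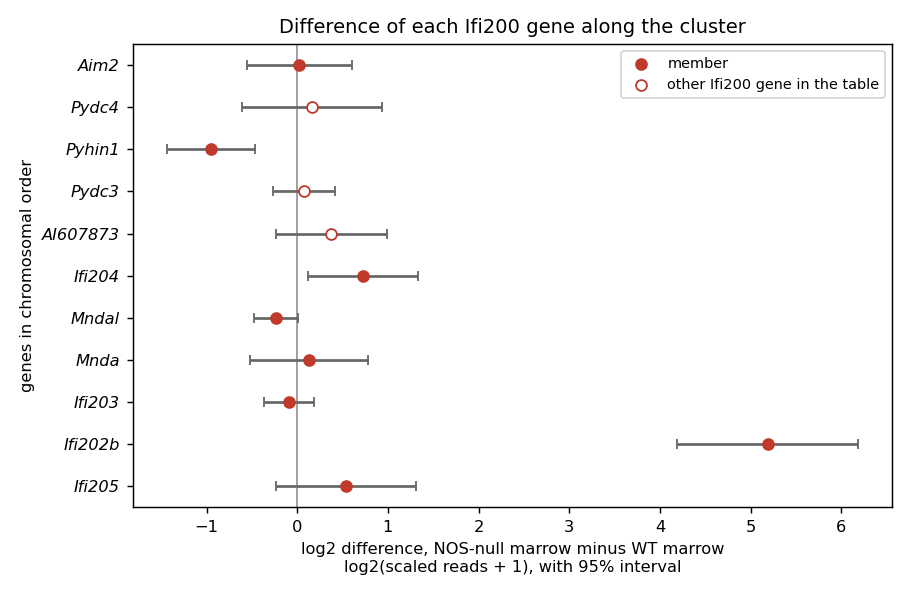
Log2 difference of each Ifi200 gene, NOS-null marrow minus WT marrow, with its 95% interval, from Aim2 at the top to Ifi205 at the bottom in chromosomal order. Ifi202b stands at 5.19, and its neighbours Ifi203 and Ifi205 at −0.09 and 0.54.

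Levels can be compared between genes only per length, for which the deposited FPKM values (fragments per kilobase of transcript, scaled to library size) serve. With NOS-null marrow the order of FPKM levels was Mndal (32.1 ± 1.36, SD, n = 4), Ifi203 (17.2 ± 1.69), Ifi205 (6.78 ± 3.25), Ifi204 (6.15 ± 1.18), Ifi202b (6.00 ± 3.28), Pyhin1 (3.37 ± 0.33), Mnda (3.02 ± 0.49) and Aim2 (2.89 ± 1.02). With WT marrow it was Mndal (38.1 ± 6.10), Ifi203 (18.4 ± 3.33), Pyhin1 (6.79 ± 1.96), Ifi205 (4.51 ± 1.77), Ifi204 (3.88 ± 1.54), Mnda (2.92 ± 1.22), Aim2 (2.78 ± 0.72) and Ifi202b (0.0901 ± 0.0697). Mndal and Ifi203 stood clear of the rest in both groups. From Ifi205 down, neighbours in the NOS-null order differed by less than the larger of their 2 SDs, and so did neighbours from Ifi205 to Aim2 in the WT order. Ifi202b thus ranked beside Ifi204 and Ifi205 with NOS-null marrow, and last with WT marrow. It made up 13.3, 6.02, 4.90 and 6.28% of the members' summed FPKM in NOS-null marrow lungs 1 to 4, and at most 0.228% in any WT marrow library. The summed FPKM of the 8 members was 77.5 ± 8.23 in the NOS-null marrow lungs and 77.5 ± 11.3 in the WT marrow lungs.

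Promoter sequences from RefSeq (GRCm38.p6, 250 bases before to 50 after a start) matched 7 of the 8 members and 3 of the 4 further genes. Each was searched on both strands for the core of the interferon-stimulated response element (ISRE), GAAA-NN-GAAA (N being any base), where interferon-activated factors are known to bind, and for the interferon gamma activated site (GAS), TTCNNNGAA. The 2 motifs did not overlap in any promoter shown. The ISRE core was in the promoters of Ifi203 (at 1 of its 2 starts), Ifi205, Mnda and Mndal among the members, and of AI607873, Pydc3 and Pydc4. That makes 7 of 10 genes and 8 of 12 promoter entries, where 3.44% of 32851 mouse promoter entries of this length hold it. Some of these promoters are near copies of each other, as those of Pydc3 and Pydc4 are, so the entries are not independent. Those of Ifi202b, Aim2 and Pyhin1 did not hold it in these windows, and Ifi202b held 1 GAS motif, as 8.30% of promoters do. The promoters of Ifi202b, of its neighbour Ifi205 and of Pyhin1 are shown because they include the highest and the lowest member and the nearest gene beyond Ifi202b, with motif matches in capitals (chr1:173982795-173983094 minus strand, chr1:174031706-174032005 minus strand and chr1:173630609-173630908 plus strand).
Ifi202b: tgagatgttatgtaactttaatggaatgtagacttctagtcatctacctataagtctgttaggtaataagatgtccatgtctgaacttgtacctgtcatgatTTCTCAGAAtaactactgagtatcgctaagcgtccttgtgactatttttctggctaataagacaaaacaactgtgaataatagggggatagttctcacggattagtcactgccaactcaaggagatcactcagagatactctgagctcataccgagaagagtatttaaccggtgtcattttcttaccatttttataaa
Ifi205: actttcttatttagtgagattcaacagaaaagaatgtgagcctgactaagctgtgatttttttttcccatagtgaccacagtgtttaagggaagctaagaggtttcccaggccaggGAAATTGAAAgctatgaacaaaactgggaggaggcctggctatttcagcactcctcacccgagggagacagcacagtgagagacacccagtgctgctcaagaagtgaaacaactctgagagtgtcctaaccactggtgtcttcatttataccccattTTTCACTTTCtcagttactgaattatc
Pyhin1: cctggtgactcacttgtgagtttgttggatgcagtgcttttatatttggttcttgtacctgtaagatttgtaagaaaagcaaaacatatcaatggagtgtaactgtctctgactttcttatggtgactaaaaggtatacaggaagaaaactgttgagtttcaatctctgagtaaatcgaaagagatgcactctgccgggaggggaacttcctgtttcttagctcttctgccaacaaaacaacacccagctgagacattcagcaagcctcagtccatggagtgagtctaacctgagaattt

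Ifi205 holds 2 ISRE cores, the first starting 134 bases before the start site. The 4 members with the ISRE core had log2 differences of −0.23 to 0.54, and the 3 without it had 5.19 (Ifi202b), 0.02 (Aim2) and −0.95 (Pyhin1).

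Genes around the cluster were then tested, since they were not chosen for their values. Within 5 Mb of the cluster on either side, 82 genes outside the family were tested with limma, and 4 of them (4.88%) passed an adjusted p of 0.05, 2 higher and 2 lower with NOS-null marrow. This share is near the 4.05% of all tested genes and the 3.93% on the rest of chromosome 1. The median log2 difference of the 82 neighbours was −0.07, and 25 of the 82 were above 0, against 50.1% of all tested genes. In 24 of the 82 (29.3%) the groups did not overlap, against 17.1% of all tested genes. Within 2 Mb the same 4 genes passed out of 37 tested (10.8%), and within 10 Mb 7 of 153 passed.

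Kmo, which encodes kynurenine 3-monooxygenase of tryptophan breakdown, lies 1600 kb beyond the cluster (175632193 to 175660853) and was lower with NOS-null marrow. It stood at 17.4, 20.8, 31.6 and 22.8 scaled reads in NOS-null marrow lungs 1 to 4, against 79.5, 82.4, 62.1 and 52.9 in WT marrow lungs 1 to 4 (log2 difference −1.55, SE 0.22, limma adjusted p = 0.00962). The groups did not overlap. On the other side, Casq1, which encodes a calcium store protein of skeletal muscle, fell to 24.9 ± 7.78 scaled reads with NOS-null marrow, against 53.4 ± 5.79 with WT marrow (−1.12, SE 0.24, limma adjusted p = 0.0338). With any 1 of the 8 libraries left out, Kmo still passed (highest adjusted p = 0.0491 in limma). Casq1 lost its call when NOS-null marrow lung 2 or any WT marrow lung was left out (limma adjusted p up to 0.113). The lowest log2 difference among the 82, −2.77, was that of Fcrla, an Fc receptor-like gene of B cells singled out here after its values were seen (limma adjusted p = 0.067). The part of B cell markers in that value was not tested.

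**Figure D4:**
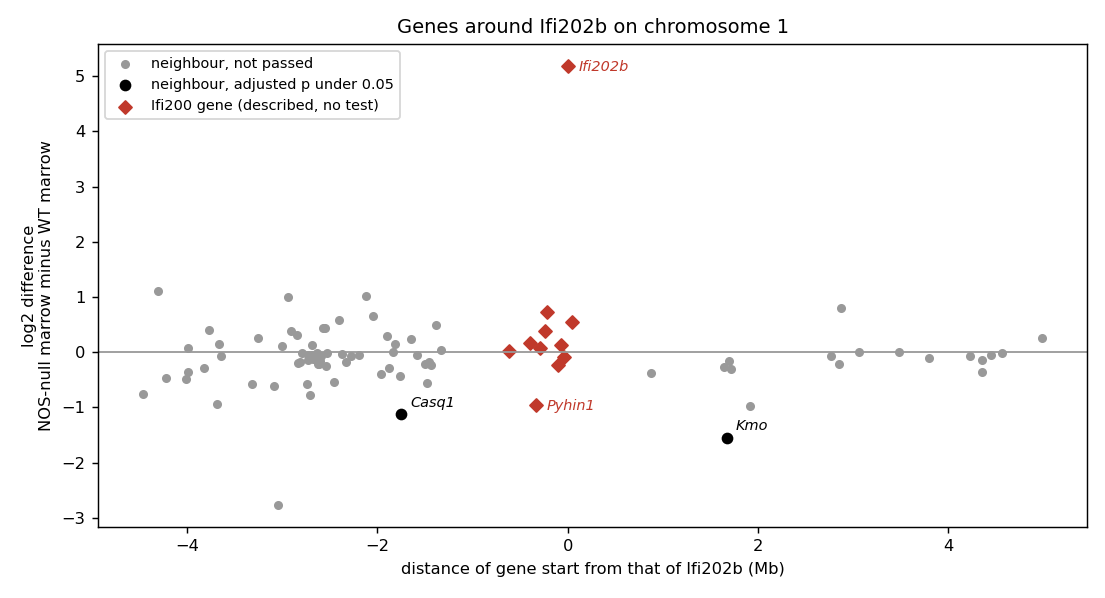
Log2 difference, NOS-null marrow minus WT marrow, of tested genes within 5 Mb of the cluster against the distance of their start from that of Ifi202b in Mb. Diamonds are Ifi200 genes and black points are Kmo and Casq1, the 2 neighbours that fell, while the 2 that rose are not drawn. Ifi202b stands at 5.19, and Fcrla is the lowest neighbour at −2.77.

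Partners of the family in sensing and signalling were counted from lists. Of 22 tested genes of cytosolic DNA and RNA sensing, 1 passed, a share near the 4.05% of all tested genes. It was the interferon regulator gene Irf7, which rose to 323 scaled reads on average with NOS-null marrow, against 160 with WT marrow (log2 difference 0.99, SE 0.18, limma adjusted p = 0.0219). Samhd1, a nucleotide-cleaving restriction factor, and Lrrfip1 were the most abundant that did not pass (0.71 and −0.12, limma adjusted p = 0.123 and 0.285). The median of the list was 0.08. Tmem173, which encodes Sting, the adaptor described for Ifi204, averaged 289 scaled reads with NOS-null marrow, against 365 with WT marrow (−0.34, SE 0.11, limma adjusted p = 0.0897).

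Of 17 tested inflammasome and pyroptosis genes, through which Aim2 acts, 1 passed, again near the 4.05% of all tested genes. It was the sensor gene Nlrp3, which rose, with 131, 85.4, 43.4 and 57.6 scaled reads in the NOS-null marrow lungs and 18.9 to 37.4 in the WT marrow lungs (log2 difference 1.48, SE 0.34, limma adjusted p = 0.0428). Pycard, the adaptor that Aim2 binds, averaged 174 scaled reads with NOS-null marrow, against 181 with WT marrow (−0.06, limma adjusted p = 0.838). Casp1, the protease of the complex, averaged 141 with NOS-null marrow, against 104 with WT marrow (0.36, limma adjusted p = 0.364). The pore gene Gsdmd averaged 351 with NOS-null marrow, against 296 with WT marrow (0.24, limma adjusted p = 0.229). Nek7 and Casp8, the most abundant that did not pass, had 0.27 and −0.04, and the median of the list was 0.24. The Irf7 call was lost when NOS-null marrow lung 2 or WT marrow lung 1, 3 or 4 was left out (highest limma adjusted p = 0.0825). The Nlrp3 call was lost when NOS-null marrow lung 1 or 2, or any WT marrow lung, was left out (highest limma adjusted p = 0.123).

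Genes of the type I interferon response, the signal known to induce Ifi200 genes, were also counted. Of 22 tested, 7 (Rsad2, Ifi44, Usp18, Ifit2, Ifit1, Oasl2 and Cmpk2) rose by limma, against 1.87% of all tested genes called higher, 21 were above 0, and the median log2 difference was 0.65. With any 1 library left out Rsad2 and Ifi44 still passed, and each of Usp18, Ifit2, Ifit1 and Oasl2 lost its call in at least 2 of the 8 fits. The highest, the antiviral gene Rsad2, was at 1.67 (SE 0.16, limma adjusted p = 0.00199), and Bst2, among the most abundant that did not pass, was at 0.38 (limma adjusted p = 0.0654). Over the list, the mean deviation from the 8-library mean was 0.58, 0.35, 0.12 and 0.41 on the log2 scale in NOS-null marrow lungs 1 to 4, against −0.19, −0.31, −0.26 and −0.70 in WT marrow lungs 1 to 4. The 7 members other than Ifi202b had mean deviations of 0.04, 0.27, −0.24 and −0.03 in NOS-null marrow lungs 1 to 4, against 0.15, 0.01, 0.24 and −0.45 in WT marrow lungs 1 to 4. WT marrow lung 4 was lowest by both measures, while the 2 groups were apart for the interferon list and overlapped for these members.

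Within NOS-null marrow, Ifi202b was highest in replicate 1 and lowest in replicate 3. Neutrophil markers had the same order, with mean deviations of 3.63, 0.84, −0.48 and 0.19 in replicates 1 to 4. So did monocyte and macrophage markers, at 0.85, 0.37, −0.21 and −0.01. The order was not particular to these markers. The inflammasome list (0.65, 0.30, −0.24 and −0.00) and the sensing list (0.27, 0.12, −0.11 and 0.02) had it too. Among the other members Ifi204 alone had it, at 132, 113, 82.8 and 102 scaled reads. The 7 neutrophil markers summed to 4160 to 90314 scaled reads in the NOS-null marrow lungs and 1657 to 3981 in the WT marrow lungs, and the 8 monocyte and macrophage markers to 36966 to 46070 with NOS-null marrow, against 31588 to 42045 with WT marrow, none at 0. Lyz2 alone held 33933 to 42138 of the latter sum with NOS-null marrow and 29032 to 38857 with WT marrow, so that sum mostly follows Lyz2. All 8 log2 differences were above 0, and that of Lyz2 was the lowest at 0.17. In limma 0 of either list passed the adjusted threshold, and the median log2 differences were 2.13 (neutrophil) and 0.41 (monocyte and macrophage). Within WT marrow the monocyte and macrophage list was at 0.06, −0.28, −0.12 and −0.65 in replicates 1 to 4, where Ifi202b was at 0 to 2 reads. The part of neutrophil, monocyte and macrophage markers in the Ifi202b difference was not tested.

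**Figure D5:**
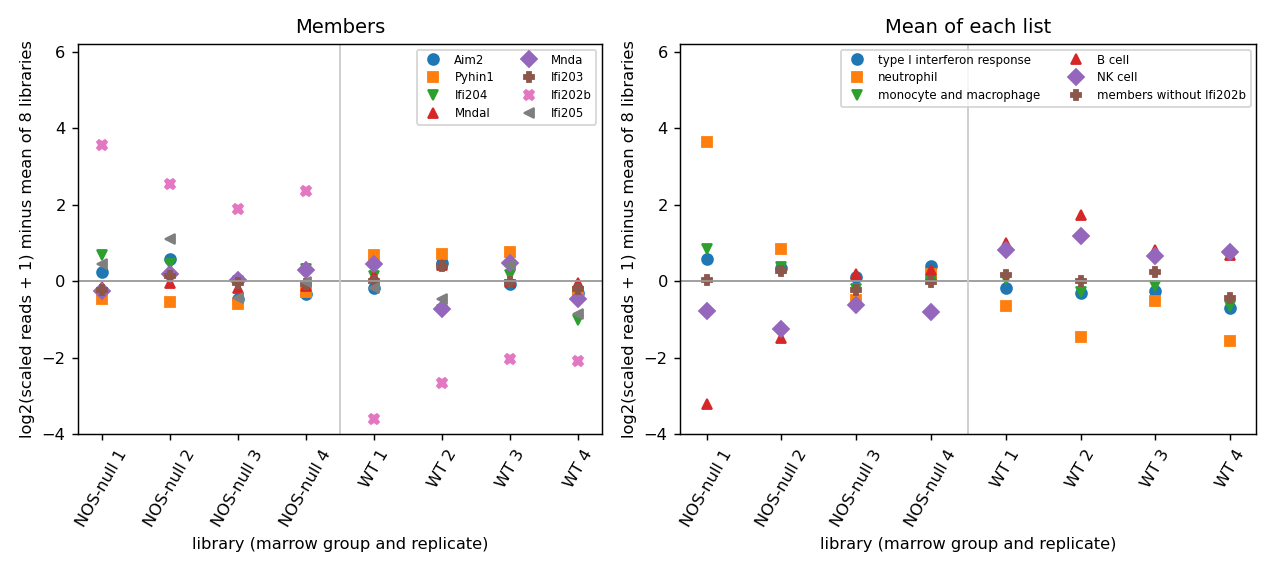
Deviation from the mean of the 8 libraries on the log2(scaled reads + 1) scale, by library, of each member (left) and, as a mean, of several gene lists (right). Ifi202b splits the 2 marrow groups, the means of the other members lie between −0.45 and 0.27 with the groups overlapping, and NOS-null marrow lung 1 stands out in the neutrophil list at 3.63 and in the B cell list at −3.20.

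Genes whose profile over the 8 libraries was most like that of Ifi202b were looked for among tested genes with a mean of at least 20 scaled reads, by the smallest root mean square difference of centred log2 values. They were Gdpd3, a phospholipid-cleaving enzyme gene on chromosome 7 (0.69), Gm5506 (1.07), BC018473 on chromosome 11 (1.11) and Hal, which encodes the first enzyme of histidine breakdown, on chromosome 10 (1.13). Their own log2 differences between the groups were 3.74 (Gm5506) to 7.05 (BC018473). The 7 other members differed from Ifi202b by 2.35 to 3.16 on the same measure, with Ifi204 the nearest and Pyhin1 the farthest. This measure includes the difference between the marrow groups, by which the family was chosen. No likeness or distance beyond that difference is read from it. The genes most like the mean profile of the 7 other members were Ammecr1, Slc25a13, Mob1a and Socs6 (0.09 to 0.11), with log2 differences of −0.01 to 0.11 between the groups.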

How the data were processed

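Lung mRNA of 8 mice was sequenced as 75 bp single reads, per the labels' protocols. Per the submitters' processing notes, TopHat2 2.0.13, Bowtie2 2.2.3 and Cufflinks 2.2.1 were run on the mm10 genome. Which annotation, settings and strandedness were used is not given in the sources used here. Signal values in the main deposited table are read counts that the authors divided by 1 size factor per library, as the near-whole steps of the values show. Levels between genes, and 1 alternative, used FPKM values that the authors deposited. Sample titles define the groups, since the design text of the series gives one marrow genotype throughout.

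Values were log2-transformed after adding 1, and 14008 of 23284 genes, those reaching 10 in 4 or more libraries, went into limma 3.58.1 (R 4.3.3, trend, not robust), Benjamini-Hochberg adjusted over all of them. Each p-value reflects only how far these samples spread, which may be technical. Log2 differences understate changes of low genes. Totals of 7767065 to 8625142 set the depth, and intervals on reads cover counting error only. Positions are from RefSeq on GRCm38.p6, the assembly of mm10, matching 23036 symbols, and read windows from the GENCODE M21 transcripts. The limma step was tested on simulated counts with the same relative spread setting for every gene and no outlying library. That checks the code and does not show how far calls depend on single libraries. The members and lists were chosen with earlier results of these data known. Named genes are the Nos genes, all family genes, called or nearest neighbours, for each list the called genes (up to 6) and the 2 most abundant others, and the 4 genes of most similar profile. Tmem173, Pycard, Casp1, Gsdmd, Fcrla, Cmpk2 and the NK cell genes were named after their values were seen. Some genes that the rule names, among them the nearest neighbours on both sides and the 2 neighbours that rose, are not reported here, so the neighbours described by name do not stand for all of them.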

Additional observations from a re-analysis of the deposited data

Results flagged for a closer look

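The spread within each group of 4 was examined for 30 genes of the report (59 groups with any spread), and in 5 groups 1 library stood far from the other 3, where chance gives about 1 in 20. Pyhin1 in WT marrow replicate 4 was at 107 scaled reads, against 209 to 222 in the other 3. Pydc3 in WT marrow replicate 4 was at 199, against 165 to 169. Casp8 in NOS-null marrow replicate 1 was at 373, against 428 to 437. Usp18 in NOS-null marrow replicate 3 was at 275, against 300 to 302. Nos1 in NOS-null marrow replicate 4 was at 1.09, against 0 in the other 3.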

How the results depend on the processing

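The log2 difference of Ifi202b, whose direction the choice of the family fixed, was 4.85 to 5.42 over the 8 fits that left out 1 library, and moved beyond the spread between replicates with 5 added before the logarithm (3.66). Without NOS-null marrow replicates 1 and 2 together it was 4.73. The members' median ran from −0.04 to 0.16 over the fits that left out 1 library. The number of members called was 1 to 2 over those fits, and 1 without a filter on low values, with the FPKM table, with the replicate block and without NOS-null marrow replicates 1 and 2 together. Pyhin1 was the member that lost its call, and it was called in 8 of 18 alternative settings.

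Calls over all genes (567) ranged from 71 to 798 when 1 library was left out, with 135 under the replicate block and 181 without NOS-null marrow replicates 1 and 2 together. The number was 95 without NOS-null marrow replicate 2, and 71, 81, 87 and 233 without WT marrow replicates 1, 2, 3 and 4. Called neighbours (4) ranged from 2 to 9, with 2 under the block and 7 within 10 Mb. Sensing genes (1) ranged from 0 to 2, and 0 without that pair. Inflammasome genes (1) ranged from 0 to 2, and were 0 without the filter, with FPKM, under the block and without that pair. Interferon genes (7) ranged from 2 to 10, and were 2 under the block and 2 without that pair. The cause was not tested. Casp8, which did not pass, changed sign on leaving out replicate 1 of NOS-null marrow (0.015), replicate 2 of WT marrow (0.00043) or that pair (0.012), with a range of −0.085 to 0.015 over fits leaving out 1 library.

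Same-numbered libraries shared deviations with r of 0.04, 0.17, −0.00 and 0.15 over genes (replicates 1 to 4). The values of replicates 2 and 4 were the highest of all pairs between the groups. Replicate 1 of NOS-null marrow was most like WT marrow replicate 3 (0.11), and replicate 3 most like WT marrow replicate 4 (0.07). The numbers were therefore not taken as pairs in the main fit, and the replicate block above gives the fit that does so. Summing members that share reads was chosen after seeing the data, and the sums appear with those members. A count-based test was not run, because whole reads were not recovered for all genes. Genes near the filter of 10 scaled reads are limited by depth.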
